A study of Mus musculus with 29 samples.

Results

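The S-phase and mitosis genes described here are 39 mouse genes chosen by symbol. They comprise 12 genes of replication licensing and the replication fork, 4 of nucleotide supply, 6 cyclins, 8 mitotic kinases, kinase regulators and checkpoint genes, 7 genes of chromosome structure, centromeres and motors, and 2 transcription factors. All 39 had reads, out of 15954 genes with reads in the table of cleavage and polyadenylation (pA) sites. The genes were measured in C2C12, an established mouse myoblast line that proliferates in serum-rich medium and differentiates into muscle cells when serum is withdrawn. RNA was counted by 3'READS+, which sequences the 3' ends of polyadenylated transcripts, so that a read counts a transcript and not its length. Values are CPM, the gene's read count scaled to the total of its library.

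Differentiating and proliferating C2C12 cells were each split into a membrane and a cytosol fraction, and each fraction into polysomes and monosomes, with 2 libraries for each of the 8 combinations. Proliferating cells also gave 1 unfractionated library each of the membrane and cytosol fractions. A further membrane and cytosol library came from each of 4 puromycin exposures: untreated cells, and cells given 100 µg/ml puromycin for 0, 30 or 60 min. RNA-seq of the insoluble, membrane and cytosol fractions of proliferating cells gave 1 library each. All proliferating and puromycin samples were in medium with 10% fetal bovine serum. Differentiating polysome libraries are labelled with 2% horse serum, whereas differentiating monosome libraries carry the 10% fetal bovine serum medium in their labels. The labels do not say whether replicates were separate cultures, so p-values measure the spread between these libraries, which may be technical.

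The 26 3'READS+ libraries held 2964852 to 11631401 reads. The 8 differentiated-muscle markers checked (Myog, Myh3, Ckm, Acta1, Tnnt3, Tnnc1, Tmem8c and Mef2c) summed to 3497 to 49920 CPM in the 8 differentiating gradient libraries, against 158.9 to 331.7 CPM in the 8 proliferating ones. Within the differentiating libraries, replicate 1 held 19499 to 49916 CPM of these markers and replicate 2 held 3497 to 7000 CPM. The 4 myoblast markers (Myod1, Myf5, Pax7 and Des) summed to 635.1 to 1290 CPM in differentiating libraries, against 154.5 to 518.2 CPM in proliferating ones. Most of each sum was Des, which was higher in differentiating cells (log2 2.19 ± 0.21), as was Myod1 (log2 1.15 ± 0.35). Myf5 lay the other way and did not pass (log2 -0.65 ± 0.52). Pax7 was at 0 in every gradient library of both states except replicate 1 of proliferating membrane monosomes (0.821 CPM). The 6 membrane-fraction markers (Hspa5, Calr, Pdia3, Col1a1, Itgb1 and Cd63) summed to 9168 to 34680 CPM in membrane libraries, against 750.5 to 3944 CPM in cytosol libraries. The 5 cytosol-fraction markers (Rpl8, Rps3, Eef2, Gapdh and Eef1a1) separated the fractions less. They summed to 16150 to 66360 CPM in cytosol libraries and 10050 to 42210 CPM in membrane libraries, which overlap.

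Cells copy their genome in S phase and separate the copies in mitosis. Licensing factors load the MCM helicase at origins before S phase, cyclins and their kinases start replication and then mitosis, and centromere proteins, motors and the spindle checkpoint carry out and supervise chromosome separation. E2F factors with the MuvB, B-MYB (Mybl2) and FOXM1 complexes transcribe these genes in successive waves, and myoblasts leave the cell cycle as they differentiate into muscle.

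All 39 genes were lower in differentiating than in proliferating cells. The median log2 change over the 4 compartments was -2.57, which is 16.8% of the proliferating level, beside -0.09 for all 11176 genes tested. Each of the 39 passed edgeR's quasi-likelihood test at an adjusted p of 0.05 and none was higher, where 19.2% of all genes tested were called lower and 16.3% higher. The fit took the 16 gradient libraries as separate, although same-numbered libraries deviated together across fractions and gradient parts. Standard errors and p-values of the mean over 4 compartments may therefore be too small, here and for the single genes below. The summed level of the 39 genes was 471 to 1089 CPM in the 8 differentiating gradient libraries, against 2719 to 5244 CPM in the 8 proliferating ones, so the groups did not overlap. Gene by gene, the 2 groups of 8 libraries did not overlap for 25 of the 39, against 2.77% of all genes tested that lay wholly lower in differentiating cells. In bulk RNA, fewer cycling cells and less RNA per cell cannot be told apart. Both the summed level of the 39 genes and the muscle markers differed by replicate. The 39 genes summed to 1.17 to 1.75 times more in replicate 2 than in replicate 1 in each of the 8 groups, and the part of this difference in the results was not tested.

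**Figure D1:**
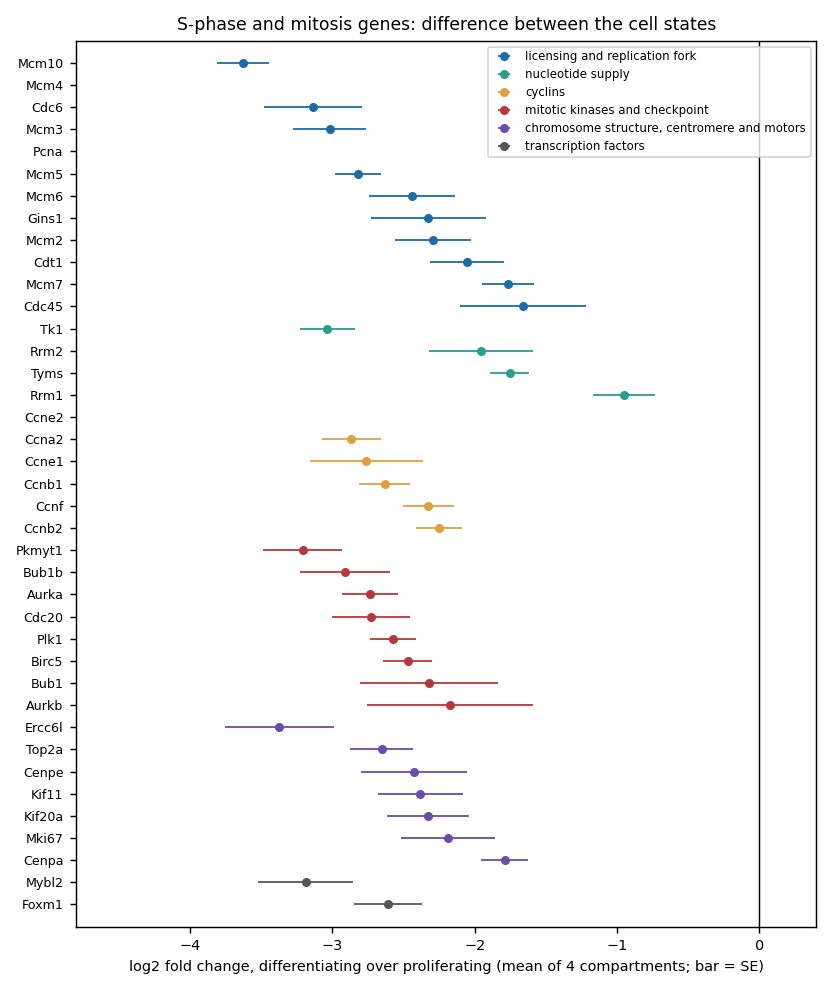
Log2 fold change of each gene in differentiating over proliferating cells, as the mean of 4 compartments (16 libraries); bars are standard errors of the edgeR fit and colours are gene classes. Every gene drawn lies left of 0, between Mcm10 at -3.63 and Rrm1 at -0.95; Pcna, Ccne2 and Mcm4 are not drawn because differentiating cytosol monosomes held no read of them.

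Licensing and replication fork genes fell together, 12 of 12, with a median log2 change of -2.63. This median holds fitted values of Pcna and Mcm4, although differentiating cytosol monosomes held no read of them. From pooled reads Pcna lay at log2 -2.02 and Mcm4 at -3.20, and the class median was not recomputed with these. Mcm3, a subunit of the replicative helicase and the most abundant gene of the class, had 19.9 and 36.6 CPM in differentiating membrane polysomes, 17.0 and 27.1 CPM in membrane monosomes, 30.7 and 47.9 CPM in cytosol polysomes, and 10.2 and 20.9 CPM in cytosol monosomes (replicates 1 and 2). In proliferating cells Mcm3 had 226 and 319.7 CPM in membrane polysomes, 217 and 288 CPM in membrane monosomes, 176 and 352 CPM in cytosol polysomes, and 122 and 178 CPM in cytosol monosomes. Every differentiating value was under every proliferating value, and the log2 change was -3.02 ± 0.26 (SE; adjusted p = 2.7e-06, edgeR). Mcm10, which is needed to activate the loaded helicase, had the largest change in the class among genes with reads in every group, at 0.522 to 5.27 CPM in differentiating libraries against 21.0 to 56.5 CPM in proliferating ones (log2 -3.63 ± 0.18). Cdc6, an MCM loader, had a median of 0.984 CPM against 17.4 CPM (log2 -3.14 ± 0.34), although its highest differentiating library (3.57 CPM) lay above its lowest proliferating one (2.60 CPM). The smallest changes of the class were those of Mcm7 (log2 -1.77 ± 0.18) and Cdc45, a helicase cofactor (log2 -1.66 ± 0.44).

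Pcna, the replication clamp, Ccne2 and Mcm4 had few 3' end reads and none in either differentiating cytosol monosome library. Over all 8 libraries of a state, Pcna had 56 reads in differentiating cells against 250 in proliferating cells, Ccne2 11 against 127, and Mcm4 12 against 121. From these pooled reads the log2 differences were -2.02 for Pcna, -3.40 for Ccne2 and -3.20 for Mcm4, with which the median of the 39 genes was -2.47. RNA-seq of proliferating cells, counted over 3' untranslated regions, gave 121 to 179 CPM for Pcna, 83.6 to 94.9 CPM for Mcm4 and 49.2 to 60.7 CPM for Ccne2, where the 3' end libraries held at most 10.7, 5.54 and 4.92 CPM. The reason for this difference between the assays was not tested.

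The 4 nucleotide supply genes all fell, with the smallest median of the classes (log2 -1.86). Rrm2, the regulated subunit of ribonucleotide reductase, had 51.7 and 93.0 CPM in differentiating membrane polysomes, 51.2 and 103 CPM in membrane monosomes, 70.3 and 126 CPM in cytosol polysomes, and 38.6 and 62.4 CPM in cytosol monosomes. Its proliferating values were 201 and 416 CPM, 200.2 and 435 CPM, 220.0 and 669.5 CPM, and 104 and 362 CPM in the same compartments. The lowest proliferating library lay under the highest differentiating one, and the log2 change was -1.96 ± 0.37 (SE; adjusted p = 0.0013, edgeR). Tk1, thymidine kinase of the salvage pathway, changed more, with a median of 11.8 CPM against 98.3 CPM (log2 -3.04 ± 0.19). Rrm1, the large subunit of ribonucleotide reductase, had the smallest change of all 39 genes, with a median of 24.4 CPM in differentiating cells against 51.0 CPM in proliferating cells (log2 -0.95 ± 0.22; adjusted p = 0.0046, edgeR).

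All 6 cyclins fell (median log2 -2.70). Ccna2, cyclin A2 of S phase and G2, had 39.9 and 50.2 CPM in differentiating membrane polysomes, 32.8 and 26.8 CPM in membrane monosomes, 48.4 and 107 CPM in cytosol polysomes, and 13.8 and 18.9 CPM in cytosol monosomes. Proliferating cells had 294 and 296 CPM, 263 and 371 CPM, 454 and 611 CPM, and 122 and 199 CPM of Ccna2 in these compartments. The groups did not overlap, and the log2 change was -2.87 ± 0.20 (SE; adjusted p = 6.3e-07, edgeR). The mitotic cyclins Ccnb1 (log2 -2.63 ± 0.18) and Ccnb2 (log2 -2.25 ± 0.16) and Ccnf, the F-box cyclin of the SCF ubiquitin ligase (log2 -2.33 ± 0.18), did not overlap between the states either. Ccne1, cyclin E1 of S-phase entry, ranged from 0.239 to 6.02 CPM in differentiating libraries against 3.91 to 34.2 CPM in proliferating ones, which overlap (log2 -2.76 ± 0.40).

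Of the mitotic kinase and checkpoint genes, 8 of 8 fell (median log2 -2.65). Birc5, survivin of the chromosomal passenger complex and the most abundant of the 39 genes, had 58.4 and 51.5 CPM in differentiating membrane polysomes, 69.6 and 36.9 CPM in membrane monosomes, 82.5 and 130.3 CPM in cytosol polysomes, and 73.9 and 59.4 CPM in cytosol monosomes. Its proliferating values were 339 and 231 CPM, 295 and 286 CPM, 747 and 587 CPM, and 549.5 and 684 CPM. The groups did not overlap (log2 -2.47 ± 0.17; adjusted p = 5.6e-07, edgeR). Pkmyt1, a kinase that restrains Cdk1 before mitosis, had the largest change of the class at a median of 2.45 CPM against 26.8 CPM (log2 -3.21 ± 0.28). Plk1 and Aurka, kinases of spindle assembly, changed by log2 -2.57 ± 0.16 and -2.74 ± 0.20. Aurkb, the kinase of the chromosomal passenger complex, had only 34 reads in the 8 differentiating libraries against 219 in the 8 proliferating ones, and its call (log2 -2.17 ± 0.58; adjusted p = 0.011, edgeR) was lost without replicate 2 of proliferating cytosol monosomes (adjusted p = 0.068).

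Chromosome structure, centromere and motor genes fell in 7 of 7 cases (median log2 -2.38). Cenpe, the kinetochore motor CENP-E, had 26.7 and 68.0 CPM in differentiating membrane polysomes, 46.2 and 80.9 CPM in membrane monosomes, 12.0 and 43.2 CPM in cytosol polysomes, and 41.2 and 72.5 CPM in cytosol monosomes. Proliferating cells had 203 and 512 CPM, 316 and 702 CPM, 79.3 and 161 CPM, and 194 and 362 CPM. Replicate 2 was the higher library in all 8 groups, and the highest differentiating value (80.9 CPM, membrane monosomes) lay just above the lowest proliferating one (79.3 CPM, cytosol polysomes), with no overlap within any compartment (log2 -2.43 ± 0.37; adjusted p = 0.00031, edgeR). Mki67, the proliferation antigen Ki-67, had a median of 42.0 CPM in differentiating cells against 288 CPM in proliferating cells, with overlap of single libraries (log2 -2.19 ± 0.33). Top2a, topoisomerase II alpha, had a median of 5.79 CPM against 50.5 CPM with no overlap (log2 -2.65 ± 0.22). Cenpa, the centromeric histone, had the smallest change of the class at 58.2 CPM against 168 CPM (log2 -1.79 ± 0.17).

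Both transcription factors fell. Foxm1 had 6.39 and 12.6 CPM in differentiating membrane polysomes, 15.1 and 22.8 CPM in membrane monosomes, 14.2 and 20.7 CPM in cytosol polysomes, and 9.40 and 17.9 CPM in cytosol monosomes. In proliferating cells Foxm1 had 63.1 and 69.3 CPM, 74.3 and 104 CPM, 84.3 and 114 CPM, and 115 and 228 CPM, all above the differentiating values (log2 -2.61 ± 0.24; adjusted p = 4.5e-06, edgeR). A pA site with 11916 reads that the table lists under Foxm1 and a second symbol was left out, and counting it for Foxm1 gave a log2 change of -2.53. Mybl2, B-MYB of the MuvB complex, had a median of 2.82 CPM against 31.6 CPM without overlap (log2 -3.19 ± 0.34).

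**Figure D2:**
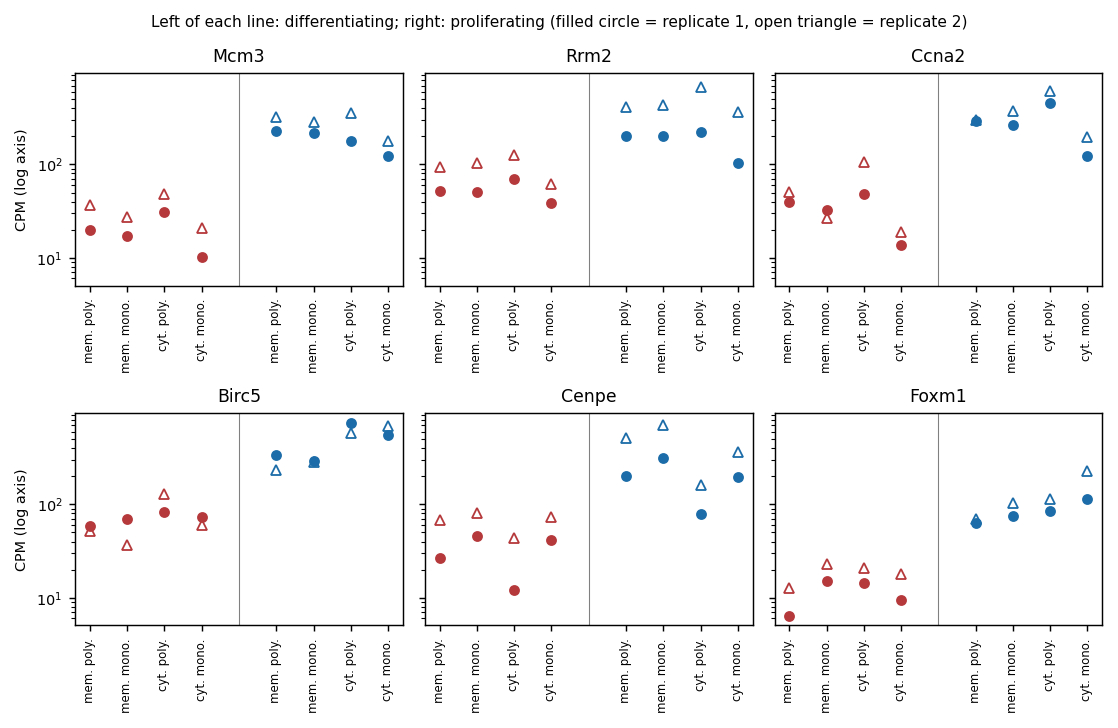
CPM on a log axis of the most abundant gene of each class in 16 gradient libraries, with differentiating libraries (red) left and proliferating libraries (blue) right of the grey line; filled circles are replicate 1 and open triangles replicate 2. Mcm3, Ccna2, Birc5 and Foxm1 lie wholly lower in differentiating libraries, whereas the ranges of Rrm2 and Cenpe overlap.

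The same direction was seen within each compartment, with fewer calls. In membrane polysomes 31 of 39 genes were called lower (median log2 -2.76; 4.2% of all genes tested were called lower), in membrane monosomes 31 (median -2.77; 5.19%), in cytosol polysomes 24 (median -2.39; 1.7%) and in cytosol monosomes 23 (median -2.19; 2.61%). No gene of the 39 was called higher in any compartment, beside 2.77%, 3.76%, 2.15% and 2.15% of all genes in the same order. These single-compartment counts rested on 2 libraries a group. They fell to 15 without replicate 2 of proliferating membrane polysomes, to 13 without replicate 2 of proliferating membrane monosomes, to 9 without replicate 1 of differentiating cytosol polysomes and to 6 without replicate 1 of differentiating cytosol monosomes. In polysomes alone, whose labels give the differentiation medium, 38 of the 39 genes were called lower with a median log2 change of -2.47. That fit called 832 genes lower and 968 higher over all genes.

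Other genes of the cell cycle were taken from lists, which were chosen with earlier results of these data known. Beside them, 19.2% of all genes tested were called lower and 16.3% higher. Of 49 tested genes of an S-phase list of 50, 47 were called lower and none higher (median log2 -1.96), among them Dnmt1, the maintenance DNA methyltransferase (log2 -2.27 ± 0.15), and Chaf1b, a chromatin assembly subunit (log2 -2.47 ± 0.18). Of 50 tested genes of a mitosis list of 54, 48 were called lower and none higher (median log2 -2.27), among them Sgol1, shugoshin (log2 -2.45 ± 0.14), and the condensin subunit Ncapd2 (log2 -2.11 ± 0.14). The exceptions were E2f2 (log2 1.02 ± 0.41), Pole2 (log2 -1.59 ± 0.62), Kif2c (log2 -1.33 ± 0.76) and Kif4 (log2 -1.82 ± 0.70), of which none passed the test. Among 7 tested inhibitors of the cell cycle, Cdkn1a, or p21 (log2 2.16 ± 0.34), Cdkn1c, or p57 (log2 3.17 ± 0.64), and the retinoblastoma gene Rb1 (log2 1.06 ± 0.23) rose, and Rbl1, or p107, fell (log2 -2.04 ± 0.24). Cdkn1a ranged from 155 to 2780 CPM in differentiating libraries against 134 to 436 CPM in proliferating ones. Cdkn1c ranged from 0.265 to 24.9 CPM against 0.221 to 2.58 CPM, and the ranges of both genes overlap between the states. Cdkn2c (log2 -0.37 ± 0.17), Rbl2 (log2 0.46 ± 0.26) and Cdkn1b (log2 -0.04 ± 0.23) did not pass.

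Promoters of the genes were read for words known from cell cycle promoters. RefSeq promoters of build GRCm38.p6, from 250 bases before to 50 after the start, were held for 30 of the 39 genes, and not used here for Aurkb, Ccna2, Ccne2, Ercc6l, Foxm1, Gins1, Kif20a, Mcm4 and Pkmyt1. On either strand, an E2F word (TTTCCCGC, TTTGGCGC, TTTCGCGC or TTTGCCGC) was found in 6 of the 30 genes (20%), against 2.6% of all 27025 genes with a promoter of that length. All 6 were licensing genes, namely Cdc6, Cdt1, Mcm3, Mcm5, Mcm6 and Mcm7. The word TTTGAA of the cell cycle homology region (CHR), which the MuvB complex binds, was found in 12 (40%) against 20.2%, and CCAAT, which NF-Y binds, in 23 (76.7%) against 41.1%. None of these words contains another. A match is a description of the letters and not evidence of binding. Windows of 30 bases are shown for each word, read 5′ to 3′ on the gene's strand, with the word or its reverse complement in capitals. The first 3 hold an E2F word before the start in MCM helicase genes; those of Mcm3 lie after its start and are not shown.
Mcm7 (chr5:138172030-138172059, minus strand): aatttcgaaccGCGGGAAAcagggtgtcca
Mcm6 (chr1:128359734-128359763, minus strand): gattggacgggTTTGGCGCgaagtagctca
Mcm5 (chr8:75109349-75109378, plus strand): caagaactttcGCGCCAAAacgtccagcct
The next 3 hold the CHR word in Mki67, in the anaphase activator Cdc20 and in Ccnf.
Mki67 (chr7:135716460-135716489, minus strand): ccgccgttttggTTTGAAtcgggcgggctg
Cdc20 (chr4:118437344-118437373, minus strand): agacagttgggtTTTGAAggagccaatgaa
Ccnf (chr17:24251410-24251439, minus strand): aggagctcccggcgcgTTTGAAaacggggc
The last 2 hold CCAAT in Rrm2 and Cenpe.
Rrm2 (chr12:24708191-24708220, plus strand): gggtcagcggcgtCCAATgggaggcgaggc
Cenpe (chr3:135212533-135212562, plus strand): gtcatgacgctgcgccacCCAATccgctgc
Of the genes with an E2F word, the 4 MCM genes changed by log2 -1.77 for Mcm7, -2.44 for Mcm6, -2.82 for Mcm5 and -3.02 for Mcm3 between the states, and the CHR genes shown by log2 -2.19 for Mki67, -2.73 for Cdc20 and -2.33 for Ccnf.

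The membrane fraction was then compared with cytosol within each state. In proliferating cells 6 of the 39 genes were higher in the membrane fraction and 4 lower, beside 23.2% and 11.5% of all genes tested. Those higher in membrane libraries were Pkmyt1 (log2 2.02 ± 0.32; adjusted p = 0.0003), Ercc6l, a helicase of anaphase bridges (log2 1.38 ± 0.45; adjusted p = 0.029), Mki67 (log2 1.37 ± 0.45; adjusted p = 0.03), Kif20a, a cytokinesis motor (log2 1.37 ± 0.36; adjusted p = 0.0099), Top2a (log2 1.14 ± 0.29; adjusted p = 0.007) and Rrm1 (log2 1.01 ± 0.31; adjusted p = 0.021). Those lower were Birc5 (log2 -1.37 ± 0.23; adjusted p = 0.00046), Foxm1 (log2 -0.95 ± 0.31; adjusted p = 0.031), Cenpa (log2 -0.91 ± 0.23; adjusted p = 0.0078) and Tyms, thymidylate synthase (log2 -0.78 ± 0.19; adjusted p = 0.006). The median was 0.42 for the 39 genes and 0.17 for all genes, and with DESeq2 size factors it was 0.23 for the 39 genes and 0 for all genes. No replication licensing gene and no cyclin passed in this fit. Mki67 had 281 and 484 CPM in proliferating membrane polysomes and 378 and 538 CPM in membrane monosomes, against 64.0 and 104 CPM in cytosol polysomes and 197 and 294 CPM in cytosol monosomes. The membrane value was the higher one in 4 of 4 replicate pairs for each of the 6 higher genes. With replicate number as a block, which pairs the fractions, the count was 16 higher and 4 lower (33.9% and 22.9% of all genes), and 10 more genes were higher. These were Cenpe (log2 0.96; adjusted p = 2.1e-06, edgeR with the block), Bub1 (log2 1.14), Bub1b (log2 0.89), Ccne1 (log2 0.79), Cdc6 (log2 0.73), Cdc20 (log2 0.58), Plk1 (log2 0.52), Ccnb1 (log2 0.52), Ccnf (log2 0.44) and Kif11 (log2 0.43), among them 1 licensing gene and 3 cyclins. Without the block the calls of Pkmyt1, Birc5, Cenpa and Tyms held with each of the 8 libraries left out in turn, Kif20a in 7, Top2a in 6, Foxm1 in 5, Rrm1 in 4, and Mki67 and Ercc6l in 1. The Foxm1 call was lost when the shared pA site was counted (log2 -0.63; adjusted p = 0.12), and that of Ercc6l with DESeq2 size factors (adjusted p = 0.052).

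In differentiating cells 1 gene of the 39 was higher in the membrane fraction and 4 lower, beside 14.2% and 5.49% of all genes tested. Pkmyt1 was higher again (log2 1.86 ± 0.47; adjusted p = 0.014), and Birc5 (log2 -0.93 ± 0.23; adjusted p = 0.013), Cenpa (log2 -0.72 ± 0.23; adjusted p = 0.045), Tyms (log2 -0.65 ± 0.19; adjusted p = 0.03) and Mcm5 (log2 -1.16 ± 0.23; adjusted p = 0.0028) were lower. The median was -0.07 for the 39 genes and turned positive, to 0.36, without replicate 2 of differentiating cytosol monosomes. Mcm5 had 7.07 and 9.25 CPM in differentiating membrane polysomes and 3.83 and 3.98 CPM in membrane monosomes, against 11.8 and 19.7 CPM in cytosol polysomes and 6.27 and 7.42 CPM in cytosol monosomes. In proliferating cells the Mcm5 difference was log2 0.28. With the replicate block 1 gene was higher and 8 lower (25.3% and 19% of all genes). Without the block the call of Mcm5 held with each of the 8 libraries left out, that of Pkmyt1 in 7, Birc5 in 5, Tyms in 2 and Cenpa in 1, and only 1 gene was called without replicate 2 of differentiating membrane monosomes.

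**Figure D3:**
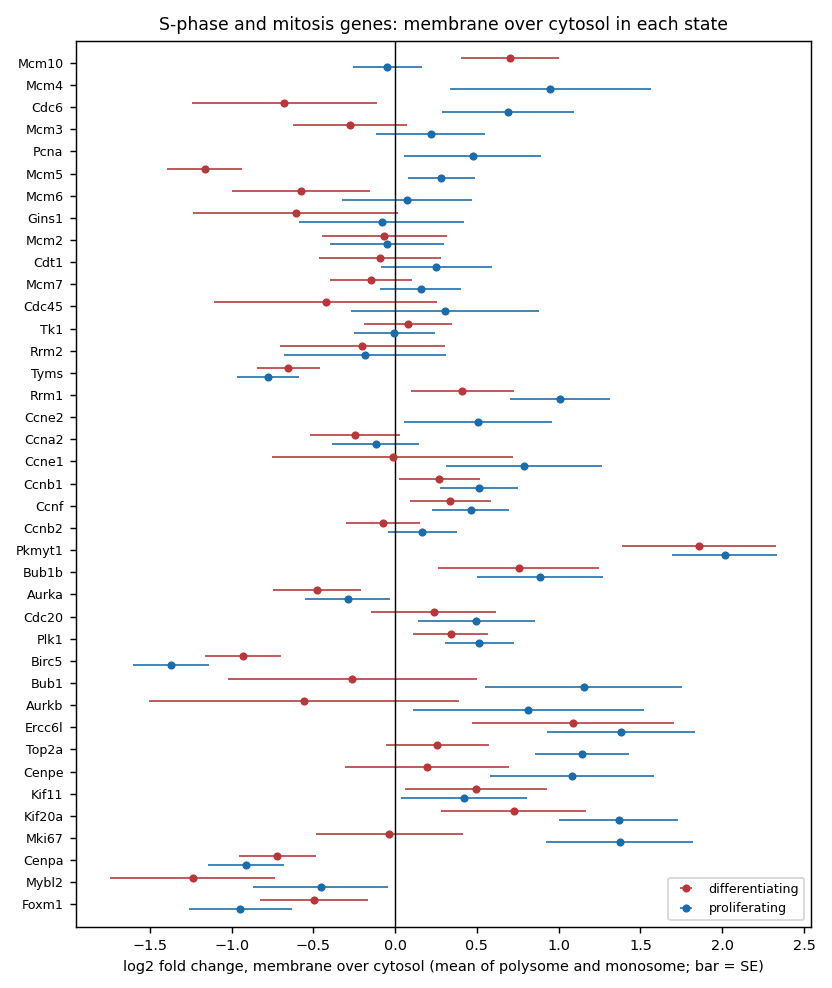
Log2 fold change of membrane over cytosol for each gene, as the mean of polysomes and monosomes, in differentiating (red) and proliferating (blue) cells; bars are standard errors. Pkmyt1 lies near 2 in both states and Birc5, Cenpa and Tyms lie left of 0 in both, whereas Mki67 lies near 0 in differentiating cells and at 1.37 in proliferating cells; the differentiating values of Pcna, Ccne2 and Mcm4 are not drawn.

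The difference between the states in the membrane over cytosol ratio was tested as an interaction. No gene of 11176 passed (0% in either direction), with 669 genes and 2 of the 39, Mcm5 and Mki67, at an unadjusted p under 0.05, while DESeq2 called 13 genes and none of the 39. With the replicate block 116 genes were higher and 486 lower, which is 1.04% and 4.35% of those tested, and 3 of the 39 were lower. These were Mcm5 (log2 -1.45; adjusted p = 0.0023, edgeR with the block), Mki67 (log2 -1.38; adjusted p = 0.00023) and Cenpe (log2 -0.74; adjusted p = 0.044). For these 3 genes the membrane over cytosol ratio was thus lower in differentiating than in proliferating cells by that fit.

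Polysomes were compared with monosomes as a measure of ribosome load. In the cytosol of proliferating cells 8 of the 39 genes were higher in polysomes and 1 lower, beside 11.5% and 12.8% of all genes tested, and the median was 0.87 against -0.02 for all genes. The genes higher in polysomes were Pcna (log2 2.43 ± 0.63; adjusted p = 0.015), Cdc6 (log2 2.23 ± 0.60; adjusted p = 0.017), Cdc20 (log2 2.00 ± 0.52; adjusted p = 0.014), Ccna2 (log2 1.67 ± 0.39; adjusted p = 0.0078), Mcm5 (log2 1.56 ± 0.30; adjusted p = 0.0026), Tk1 (log2 1.51 ± 0.36; adjusted p = 0.0086), Mcm10 (log2 1.20 ± 0.30; adjusted p = 0.012) and Aurka (log2 1.10 ± 0.37; adjusted p = 0.046). Ccnf was lower in polysomes (log2 -1.19 ± 0.34; adjusted p = 0.022), at 44.9 and 58.8 CPM in cytosol polysomes against 97.1 and 128 CPM in cytosol monosomes. Ccna2 lay the other way, with 454 and 611 CPM in cytosol polysomes against 122 and 199 CPM in cytosol monosomes. With the replicate block 24 genes were higher and 6 lower (23.7% and 24.3% of all genes). Besides Ccnf, the lower genes of that fit included Mki67 (log2 -1.63), Cenpe (log2 -1.30), Cenpa (log2 -0.94) and Ercc6l (log2 -1.58), which all belong to the chromosome structure and motor class, and Foxm1 (log2 -0.80). Without the block, the chromosome structure and motor class had a median log2 change of -0.94, and the licensing class one of 1.43. The chromosome structure and motor class was not uniform. By mean CPM, Kif20a (16.2 in polysomes against 5.88 in monosomes) and Kif11 (28.8 against 18.9) lay the other way. Top2a was nearly even (30.2 against 30.0). Mcm5 alone among the 9 called genes kept its call with each of the 4 libraries left out, and the number of calls fell to 2 without replicate 2 of proliferating cytosol polysomes.

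In the cytosol of differentiating cells, where the labelled medium differs too, 6 genes were higher in polysomes and 2 lower (12.6% and 11.3% of all genes tested), with a median of 0.76. Mcm10 (log2 2.72 ± 0.46; adjusted p = 0.0013), Pkmyt1 (log2 2.74 ± 0.78; adjusted p = 0.022), Cdc20 (log2 1.97 ± 0.57; adjusted p = 0.022), Ccna2 (log2 1.90 ± 0.40; adjusted p = 0.0046) and Tk1 (log2 1.81 ± 0.40; adjusted p = 0.0061) were higher. Pcna was called higher too, at 1.37 and 3.06 CPM in polysomes against no read in either monosome library, which is at least 2.47-fold higher when 3 counts per library are taken as the floor. With Pcna at that bound, and without Mcm4 and Ccne2, which were under the floor in both parts, the median was 0.74. Ccnf (log2 -1.15 ± 0.36; adjusted p = 0.033) and Cenpa (log2 -1.03 ± 0.33; adjusted p = 0.038) were lower in polysomes. With the replicate block 18 genes were higher and 4 lower (24.7% and 21.3% of all genes), and Cenpe (log2 -1.54) and Mki67 (log2 -1.19) were among the lower ones. The Mcm10 call held with each of the 4 libraries left out, while that of Ccnf was lost with each, and the count fell to 3 without replicate 1 of differentiating cytosol monosomes.

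In the membrane fraction fewer genes passed. In proliferating cells none of the 39 was called, beside 0.358% of all genes higher and 0.438% lower, with 2 of the 39 at an unadjusted p under 0.05, Kif11, the bipolar spindle motor (log2 1.17 ± 0.54), and Mcm5 (log2 0.70 ± 0.29). DESeq2 called 373 genes there. The median was 0.24, but 0.07 with DESeq2 size factors and -0.19 without replicate 1 of proliferating membrane monosomes. With the block 5 were higher and 2 lower (18% and 6.32% of all genes). In differentiating cells Cenpa was lower in polysomes (log2 -1.57 ± 0.34; adjusted p = 0.026) and no gene was called higher, beside 1.91% lower and 2.05% higher among all genes. Cenpa had 21.1 and 24.1 CPM in differentiating membrane polysomes against 72.7 and 58.9 CPM in membrane monosomes, but its call was lost with each of the 4 libraries left out (adjusted p up to 0.15). With the block 5 genes were higher and 3 lower (20.7% and 9.42% of all genes). The median of the 39 genes was 0.10 in the differentiating membrane fraction and -0.05 with DESeq2 size factors. Ccnf had 94.9 and 135 CPM in proliferating membrane polysomes against 114 and 135 CPM in membrane monosomes, so the mean was lower in polysomes by CPM, while the TMM-scaled fit gave log2 0.25 ± 0.33 and did not pass. No gene passed the interaction of state with gradient part (0% in either direction). At an unadjusted p under 0.05 were 542 genes and 3 of the 39, namely Plk1, Mcm10 and Pkmyt1; DESeq2 called 36 genes and the replicate block 345, none of them among the 39.

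**Figure D4:**
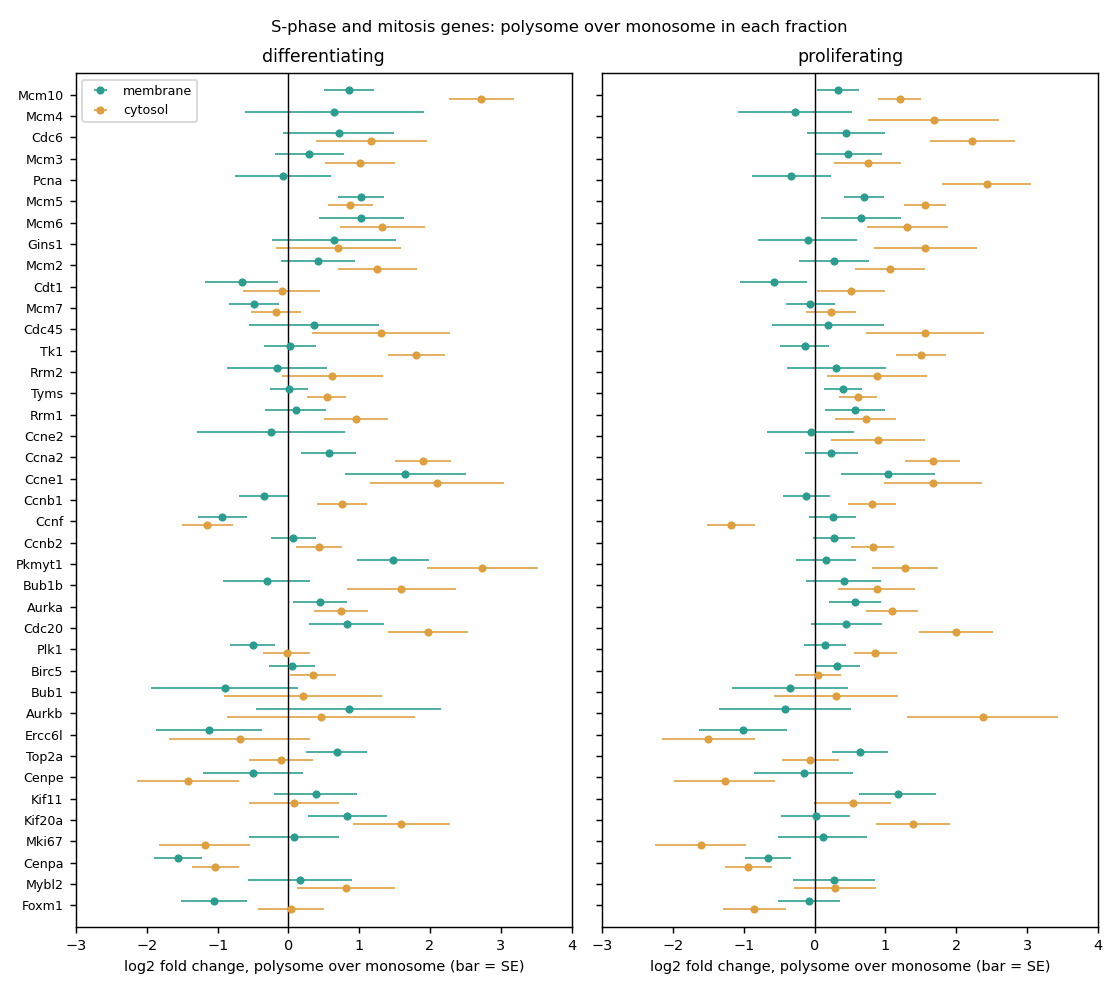
Log2 fold change of polysome over monosome for each gene in the membrane (green) and cytosol (orange) fractions of differentiating (left) and proliferating (right) cells; bars are standard errors. Cytosol values of most licensing, nucleotide supply and cyclin genes lie right of 0 in both states, and those of Ccnf, Cenpe, Mki67, Cenpa and Ercc6l left of 0; differentiating cytosol values of Pcna, Ccne2 and Mcm4 are not drawn.

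Puromycin releases growing peptides and takes ribosomes apart, and the exposures ask which RNAs stay with membranes without translation. Over 30-min steps in both fractions together, 1 of the 39 genes was called, Ccnf, which fell by 1.15 on the log2 scale per 30 min (SE 0.13; adjusted p = 0.018, edgeR). This gene was the only one lower among 9919 tested (0.0101%), where 0.413% were higher. In the membrane fraction Ccnf had 165 CPM untreated and 99.5, 51.2 and 27.4 CPM at 0, 30 and 60 min, and in the cytosol fraction 88.4 CPM untreated and 63.7, 28.4 and 18.0 CPM at these times. Each step was a decrease in both fractions, including that from untreated to 0 min. This slope fit coded untreated as 0 min, so that step is not part of the slope. It also took the membrane and cytosol libraries of an exposure as separate, although they are not replicates. The call was lost with any 1 exposure left out, which leaves at most 1 gene called in all. Coding the exposures as 30 and 60 min against untreated and 0 min called 9 genes, all higher (0.0907%), and none of the 39.

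Mki67, Cenpe and Top2a were past 2-fold higher in membrane in all 5 single pairs of libraries from proliferating cells, the unfractionated pair and the 4 exposures. Of the 39 genes with at least 20 reads in both libraries, 4 of 38, 6 of 37, 6 of 35, 4 of 36 and 4 of 36 were past 2-fold higher. The order is unfractionated, untreated, 0, 30 and 60 min, with 19.9%, 20.3%, 21.5%, 19.1% and 17.1% of all genes. Among those with that many reads, Mki67 and Cenpe had the largest ratios in the 4 exposures, whereas Pkmyt1 led in the unfractionated pair. Mki67 had 549 CPM in the unfractionated membrane library against 120 CPM in the cytosol one, and Cenpe 749 CPM against 204 CPM. At 0 min Mki67 had 659.6 CPM in membrane against 88.4 CPM in cytosol, and at 60 min 837 CPM against 309 CPM, a log2 ratio of 2.90 at 0 min and 1.44 at 60 min. For Cenpe the log2 ratio was 2.35 untreated and 2.39, 1.68 and 1.42 at 0, 30 and 60 min, and for Top2a 1.72 untreated and 2.00, 1.11 and 1.17. The change of the ratio per 30 min did not pass the test for any gene (0% in either direction; 2535 genes and 6 of the 39 at an unadjusted p under 0.05). It was log2 -0.76 ± 0.17 for Mki67 and -0.54 ± 0.15 for Cenpe (adjusted p = 0.11 for each, edgeR), and DESeq2 called 1192 genes, of which 1 was among the 39, lower. Coded as 30 and 60 min against untreated and 0 min, 10 of the 39 genes had a lower ratio and 4 a higher one, beside 20.5% and 19% of all genes. The lower ones were Bub1 (log2 -1.42 ± 0.38), Kif11 (log2 -1.29 ± 0.23), Mki67 (log2 -1.26 ± 0.18), Kif20a (log2 -0.96 ± 0.32), Pkmyt1 (log2 -0.91 ± 0.23), Cenpe (log2 -0.90 ± 0.17), Mcm7 (log2 -0.89 ± 0.17), Top2a (log2 -0.80 ± 0.20), Rrm1 (log2 -0.78 ± 0.21) and Ccnb1 (log2 -0.68 ± 0.19). The higher ones were Mybl2 (log2 1.30 ± 0.23), Birc5 (log2 0.97 ± 0.18), Foxm1 (log2 0.75 ± 0.19) and Aurka (log2 0.52 ± 0.18). Over all genes, 13.9% were past 2-fold lower in membrane untreated, and 11.7%, 2.23% and 1.43% at 0, 30 and 60 min. Whether the changes of single genes differ from this general one was not tested. In the slope fit the count of the 39 genes called was 0 to 10 with 1 exposure left out, 10 of them without 60 min. There was 1 library per fraction and exposure, and untreated and 0 min libraries differed in the sum of the 39 genes, at 5992 and 4181 CPM in membrane and 4814 and 3445 CPM in cytosol.

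**Figure D5:**
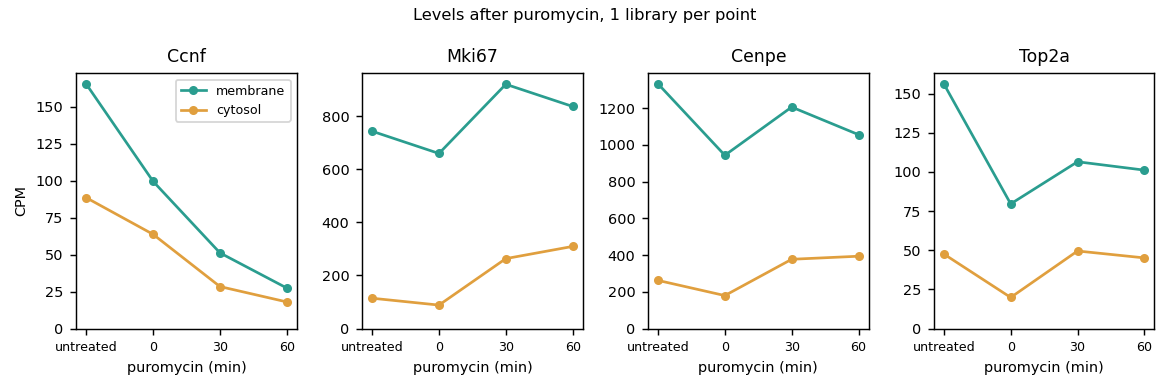
CPM of Ccnf, Mki67, Cenpe and Top2a in the membrane (green) and cytosol (orange) fractions of proliferating cells, untreated and after 0, 30 and 60 min of puromycin; each point is 1 library. Ccnf falls at each step in both fractions, while the cytosol values of Mki67 and Cenpe at 30 and 60 min lie above those at 0 min.

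Libraries without replicates were compared by size alone. In the unfractionated pair 38 of the 39 genes had at least 20 reads in both libraries, of which Pkmyt1, Mki67, Cenpe and Top2a were past 2-fold higher in membrane (19.9% of all genes) and Gins1, Tyms, Ccna2 and Birc5 past 2-fold lower (18.7%). In RNA-seq, of 29 genes with at least 20 reads in both libraries, Cdc20, Cenpe and Ccnf were past 2-fold higher in membrane over cytosol (20.7% of all genes) and Ccna2, Cenpa and Foxm1 past 2-fold lower (14.1%). Cdc20 had 189 CPM in the membrane library against 63.0 CPM in cytosol, and Ccnf 65.2 CPM against 29.4 CPM, while Ccna2 had 59.3 CPM against 143 CPM. The Cdc20 excess lay in the part of the 3' untranslated region labelled aUTR, with 965 reads in membrane against 81 in cytosol. The part labelled cUTR had 266 against 197 reads, in libraries of 6521107 and 4415707 reads. In the unfractionated 3' end pair Cdc20 went the other way, at 187 CPM in membrane against 283 CPM in cytosol. The most abundant pA site of Cdc20 held 99.98% of its reads in the 3' end libraries. The origin of the aUTR reads was not tested. In insoluble over cytosol Cenpe, Cdc45, Top2a and Ccnf were past 2-fold higher (33.4% of all genes) and Ccna2, Birc5 and Cenpa lower (17.2%). Top2a had 290 CPM in the insoluble library against 91.5 CPM in cytosol, and Cenpe 49.3 CPM against 7.02 CPM, a ratio of 7.02. These differences have no replicate check.

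Of the 39 genes, 15 had a pair of pA sites that could be tested for a change in use, the proximal site giving the shorter 3' end. Between the states Rrm1 was the 1 gene called among the 15, beside 1.1% of all 4553 pairs with more distal use in differentiating cells and 0.439% with less. The sites lie 5053 bases apart on chromosome 7, plus strand, at positions 109617440 and 109622493 of mm9. The distal site took 80% to 94.4% of the Rrm1 pair's reads in the 8 differentiating libraries (35 to 209 reads each), against 51.4% to 79.2% in the 8 proliferating ones (72 to 546 reads each). The groups did not overlap, although the 95% Wilson intervals of the nearest libraries did, at 64.1% to 90% for the lowest differentiating library and 68.4% to 86.9% for the highest proliferating one (counting error only). The log2 change of distal over proximal was 1.37 ± 0.28 (SE; adjusted p = 0.016, edgeR), and the call was lost without replicate 2 of proliferating cytosol polysomes (adjusted p = 0.055) and could not be made when sites had to be at most 4 kb apart. Ccna2 had a log2 change of 0.76 ± 0.25 that did not pass (adjusted p = 0.14), and it was called with the replicate block (adjusted p = 0.0028, edgeR), where 5.38% of pairs had more distal use and 2.26% less. Between membrane and cytosol in proliferating cells none of the 15 pairs was called, nor was any at an unadjusted p under 0.05, beside 0.483% of pairs with more distal use in membrane and 0.0439% with less.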

How the data were processed

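The authors deposited a table of read counts per pA site for 26 3'READS+ libraries and counts per 3' untranslated region for 3 RNA-seq libraries, per the file headers. Per the submitters' processing notes, cutadapt, Bowtie2 and STAR 2.5.2 were used with genome build mm9, with no roles given. The 39 genes, the other gene lists and the tests were chosen with earlier results of these data known.

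Counts were summed over the pA sites of a gene, leaving out 651 positions listed under several symbols (0.26% of reads). Libraries held 2964852 to 11631401 reads, which with 2 libraries a group limits the precision. The quasi-likelihood test of edgeR 4.0.16 (robust; R 4.3.3) was run on genes kept by filterByExpr, after TMM scaling, with a Benjamini-Hochberg adjusted p of 0.05 over all genes. The 16 gradient libraries shared 1 fit of group means, and the puromycin libraries another. Site pairs were at most 10000 bases apart with a mean of at least 10 reads. The fit was also run on simulated counts, drawn independently for each library. That run cannot show how the fit behaves where same-numbered libraries deviate together.

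Same-numbered libraries deviated together across fractions (correlations 0.504 to 0.728) and gradient parts (0.474 to 0.675), so the replicate number pairs them there. It does not pair the states by the same measure.

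Named genes were, with values in every library, the gene of each class with the highest mean CPM over the 16 gradient libraries, the largest and smallest changes of each comparison, and all called genes where 10 or fewer. Alternatives were DESeq2 1.42.0, its size factors, no count filter, the most abundant site alone, the replicate block, other puromycin coding, a 4 kb limit for site pairs and each library left out. Polysome groups alone and Foxm1 with its shared site were added after seeing the data.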

Additional observations from a re-analysis of the deposited data

Results flagged for a closer look

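For 5 genes the 4 replicate pairs of polysomes over monosomes all lay below 0 in the membrane fraction and all above 0 in the cytosol fraction, as log2 ratios of reads scaled to library totals, with 0.5 reads added. Pcna had a mean of -0.36 in membrane and 3.16 in cytosol, and Ccne2 -0.44 and 1.41, with both differentiating cytosol monosome libraries at 0. For these genes the added reads set the sign of 1 membrane pair: in replicate 1 of differentiating cells Pcna had 1.22 CPM in polysomes against 1.20 CPM in monosomes, and Ccne2 0.272 against 0.239 CPM. The checkpoint kinase Bub1 had -0.87 in membrane and 0.84 in cytosol, with no read in replicate 1 of differentiating cytosol monosomes. The mitotic cyclin Ccnb1 had -0.40 and 0.99, and the kinase Plk1 -0.35 and 0.61. In the TMM-scaled fit Plk1 was at log2 0.15 in proliferating membrane and -0.03 in differentiating cytosol, and Ccnb1 at -0.12 in proliferating membrane, so the signs of Plk1 depend on the scaling. These differences between the fractions were not tested. The share of all genes with such opposite signs was not counted, so whether 5 genes is more than usual is not known.

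In the fit with the replicate block, the membrane over cytosol ratio differed between differentiating and proliferating cells for the helicase subunit Mcm5 (log2 -1.45), for Mki67 (log2 -1.38) and for the kinetochore motor Cenpe (log2 -0.74). The fit without the block called none of them.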

How the results depend on the processing

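No called value changed direction under any alternative run. The medians of the 39 genes that lay near 0 turned sign under at least 1 alternative in 6 comparisons: membrane over cytosol in differentiating cells (-0.07, and 0.36 without replicate 2 of cytosol monosomes), polysomes over monosomes in the membrane of both states, state by gradient part, puromycin, and site use between fractions. For the state comparison over 4 compartments, polysome groups alone called 1800 genes against 3964, and with each library left out 3243 to 3944 genes and 38 to 39 of the 39. Within compartments (cytosol polysomes, cytosol monosomes, membrane polysomes, membrane monosomes) 430, 532, 779 and 1000 genes were called. DESeq2 called 880, 961, 1323 and 1579, and with a library left out 69 to 282, 69 to 332, 121 to 389 and 128 to 391 genes were called, with 9 to 20, 6 to 18, 15 to 25 and 13 to 24 of the 39. Leaving out a library can leave an arm with 1, assumed to vary like the other groups.

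The replicate block called 853, 843, 1308 and 1634 genes in these compartments, although state pairs correlated at only 0.1 to 0.256, so numbers are not taken to pair the states. Where they pair the libraries, the block called 6348 genes and 20 of the 39 for membrane over cytosol in proliferating cells and 4951 and 9 in differentiating cells, 602 and 3 for their difference, and 345 genes for state by gradient part. For polysomes over monosomes it called 5364 and 30 in proliferating cytosol, 2713 and 7 in proliferating membrane, 5142 and 22 in differentiating cytosol, and 3362 and 8 in differentiating membrane. For site use it called 348 genes and 2 of the 39 (Rrm1 and Ccna2) between states and 273 genes between fractions.

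DESeq2 called 13 genes for state by fraction, 36 for state by gradient part, 373 for polysomes in proliferating membrane, 907 and 2 of the 39 in differentiating membrane, 115 for puromycin and 1192 and 1 of the 39 for puromycin by fraction. For puromycin 64 genes were called with no count filter, and with exposed against not exposed 9 genes and 0 of the 39, and 3911 and 14 by fraction. With sites at most 4 kb apart 36 genes and 0 of the 39 were called between states, and 14 genes between fractions.

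With a library left out, membrane over cytosol called 3029 to 3498 genes and 6 to 8 of the 39 in proliferating cells, and 1563 to 1830 and 1 to 5 in differentiating cells. Polysomes over monosomes called 1262 to 1720 and 2 to 7 in proliferating cytosol, 0 to 25 and 0 in proliferating membrane, 1493 to 1776 and 3 to 6 in differentiating cytosol, and 10 to 84 and 0 in differentiating membrane. Both interactions stayed at 0. Puromycin called 0 to 1 genes and 0 of the 39, puromycin by fraction 0 to 2611 and 0 to 10, and site use 37 to 62 and 0 to 1 between states and 8 to 15 and 0 between fractions. The cause of these changes was not tested. Depth limits genes such as Ccne2 and Mcm4, with 11 and 12 reads over the differentiating libraries.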
